A study of Mus musculus with 28 samples.

Results

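The immunity-related GTPases (IRG proteins) described here are the products of 6 mouse genes, Irgm1, Irgm2, Igtp (also called Irgm3), Iigp1 (Irga6), Tgtp1 and Tgtp2 (Irgb6). The 6 genes were chosen by name, and all 6 were found among the 55487 gene IDs of the deposited count tables. Hippocampal polyadenylated RNA of mice aged 9 months, taken after behaviour tests, was sequenced in 2 cohorts that each had WT and 5xFAD animals of their own. The Ripk1 cohort also held Ripk1D138N/D138N animals (D138N below), whose RIPK1 carries a kinase-inactivating point mutation, without and with 5xFAD. The Zbp1 cohort held Zbp1-/- animals (KO below) in the same arrangement. Each of the 8 groups had 3 libraries, 24 in all. The 5xFAD line is a model of amyloid disease in which the Thy1 promoter drives mutant human transgenes, APP among them, in neurons, and the labels name no infection. Whether the 3 libraries of a group are 3 mice is not stated in the labels. The spread that the p-values rest on is therefore that of libraries and may be technical.

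IRG proteins are interferon-inducible GTPases of cell-autonomous immunity, with interferon gamma as their classical inducer. The regulators Irgm1, Irgm2 and Igtp sit on host membranes and hold the effectors inactive there. The effectors Iigp1, Tgtp1 and Tgtp2 load onto the vacuole membranes of intracellular pathogens such as Toxoplasma and help to break them open, a step that needs the ATG8 conjugation machinery of autophagy. Guanylate-binding proteins (GBPs) are a related family of interferon-induced GTPases that act at the same membranes. In brain, microglia and astrocytes exposed to interferon are known to express these genes.

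Of the 6 members 5 lie in 2 separate clusters on chromosome 11. In the RefSeq annotation of GRCm38.p6, Igtp and Irgm2 are neighbouring protein-coding genes in one cluster, and Gm12250 (Irgb10), another IRG gene, lies next to Igtp. In the other cluster Irgm1 neighbours the IRG gene Gm5431, and Tgtp1 and Tgtp2 are separated by 1 protein-coding gene, 9930111J21Rik2, that is itself an IRG gene. Iigp1 is on another chromosome. Tgtp1 and Tgtp2 are near-identical copies, so that reads of one can be assigned to the other.

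Because IRG genes are known to be induced by interferon, the start of 5 of the 6 genes is shown, from RefSeq promoter windows of GRCm38.p6 matched by symbol. Iigp1 is named only. The 250 bases upstream of each annotated gene start were searched on both strands for the core of the interferon-stimulated response element (ISRE), which is GAAA, any 2 bases and GAAA (read by interferon regulatory factors) and the gamma-activated site TTCNNNGAA (GAS; the GAS letters are their own reverse complement). Each line reads 5′ to 3′ on the gene's strand, ends before the gene start, and has the matches in capitals, GAS before ISRE where both occur.
Irgm1, chr11:48871421-48871505, minus strand: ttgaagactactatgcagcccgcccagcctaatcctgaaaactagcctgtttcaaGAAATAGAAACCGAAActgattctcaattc
Irgm2, chr11:58214858-58214957, plus strand: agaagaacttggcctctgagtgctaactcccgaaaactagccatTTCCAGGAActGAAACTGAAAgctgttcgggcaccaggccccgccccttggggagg
Igtp, chr11:58199467-58199555, plus strand: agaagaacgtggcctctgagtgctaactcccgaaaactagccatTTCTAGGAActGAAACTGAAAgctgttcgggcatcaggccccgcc
Tgtp1, chr11:48992279-48992378, minus strand: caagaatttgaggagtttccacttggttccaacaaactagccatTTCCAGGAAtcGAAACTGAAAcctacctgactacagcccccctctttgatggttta
Tgtp2, chr11:49064238-49064337, minus strand: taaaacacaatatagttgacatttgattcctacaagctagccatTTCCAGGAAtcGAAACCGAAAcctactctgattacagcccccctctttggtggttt

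All 5 windows held an ISRE match and 4 of the 5 held a GAS match as well. Over 32851 RefSeq promoter windows of the same length, 2.98% held the ISRE letters, 7.02% the GAS letters and 0.332% both. In Irgm2, Igtp, Tgtp1 and Tgtp2 the GAS and the ISRE were separated by 2 bases in the same order. The ISRE of these 4 genes started 64, 34, 77 and 70 bases upstream of the gene start, respectively. Irgm1 had 2 overlapping ISRE matches, 30 and 24 bases upstream, and the GAS letters were not in its window. Igtp and Irgm2 shared an unbroken run of 55 bases elsewhere in the window, Tgtp1 and Tgtp2 one of 27 bases, and the longest run common to all 5 windows was 6 bases. A letter match is a description of the sequence, not a measured binding site.

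**Figure D1:**
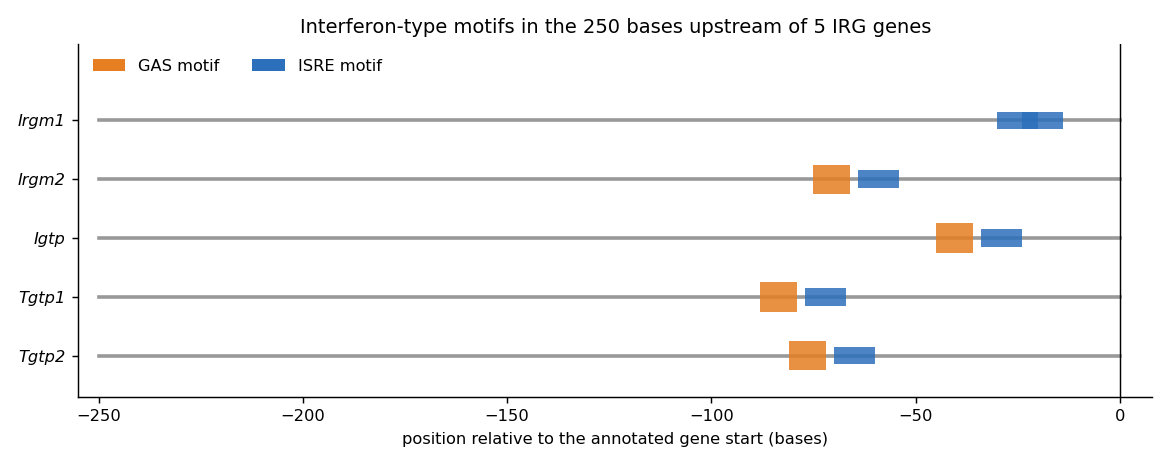
Positions of the ISRE and GAS letter matches in the 250 bases upstream of 5 IRG genes; the x axis is the distance in bases from the annotated gene start, each row is a gene, and blocks are matches. In 4 rows a GAS block stands 2 bases before an ISRE block, and Irgm1 has 2 overlapping ISRE blocks.

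Library depth ran from 16.6 M to 44.8 M counts in the Ripk1 cohort and from 27.1 M to 34.6 M in the Zbp1 cohort (M, mega), except for Zbp1 cohort WT 1 with 8.4 M. Levels below are CPM, read counts scaled to the TMM-adjusted library total. The 2 cohorts were normalised separately, so levels set across cohorts are for description only. Hippocampal neuron markers (Prox1, Wfs1, Neurod6 and 3 others) summed to 982 to 1590 CPM over the 24 libraries, and choroid plexus markers from 49.1 to 4790 CPM within groups as well as between them. Unless stated otherwise, tests are edgeR quasi-likelihood tests on all 12 libraries of a cohort with Benjamini-Hochberg adjustment over all genes tested, and a gene is called when its adjusted p is under 0.05. All 6 members passed the filter on low counts in each fit. This filter asks for a minimum level in as many libraries as the smallest group holds, so a single high group can be enough to pass. Differences are log2 fold changes ± standard error (SE).

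In WT hippocampus the regulators were present at low levels and stood several-fold higher in 5xFAD. Irgm1 was at 9.55, 7.86 and 8.76 CPM in the 3 WT libraries of the Ripk1 cohort and at 48.9, 42.3 and 48.5 CPM in 5xFAD. The 5xFAD libraries lay close together and far above WT, by 2.42 ± 0.14 (edgeR, adjusted p = 1.51e-07; 5.34-fold). Irgm2 was at 5.58, 4.46 and 4.27 CPM in WT and 21, 13.7 and 20.1 CPM in 5xFAD, a rise of 1.94 ± 0.25 (edgeR, adjusted p = 0.000205). Igtp went from 2.76, 2.55 and 1.79 CPM to 21.2, 12.7 and 17.8 CPM, a rise of 2.86 ± 0.25 (edgeR, adjusted p = 4.75e-06). For Irgm2 and Igtp, 5xFAD 2 was the lowest of the 5xFAD libraries and still above every WT library.

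The effectors were higher in 5xFAD too, although the less abundant Tgtp1 was not called. Iigp1 was at 2.47, 2.6 and 3.2 CPM in WT and at 24.3, 13.3 and 28.7 CPM in 5xFAD, a rise of 3 ± 0.29 (edgeR, adjusted p = 1.45e-05; 8.01-fold). Tgtp2 was at 0.51, 0.458 and 0.606 CPM in WT (19, 19 and 22 counts) and at 4.07, 2.42 and 4.55 CPM in 5xFAD (69, 68 and 146 counts), a rise of 2.8 ± 0.35 (edgeR, adjusted p = 0.000151). In both genes the WT libraries were uniform and the 5xFAD libraries spread more widely. Tgtp1 was at 0.429, 0.602 and 0.303 CPM in WT and 0.766, 1.88 and 1.93 CPM in 5xFAD. Its difference of 1.79 ± 0.68 was not called (edgeR, adjusted p = 0.0901), but it was by DESeq2 (adjusted p = 0.0408) and without D138N 5xFAD 2 (1.81, edgeR, adjusted p = 0.0318). Of the counts of the Tgtp1 and Tgtp2 pair, Tgtp1 took from 9.88 to 100% in single libraries (median 48.15%), and with the copies added into 1 gene the pair rose by 2.42 (edgeR, adjusted p = 0.00168).

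Thus 5 of the 6 members rose in 5xFAD of the Ripk1 cohort, where 16.1% of all 21376 genes tested were called in either direction. In 6 of 6 members every 5xFAD library lay above every WT library, which held for 17.7% of all genes tested. The median difference of the 6 was 2.61, beside 0.02 over all genes tested. RNA was taken from whole hippocampus, so more cells of a type and more RNA per cell cannot be told apart.

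**Figure D2:**
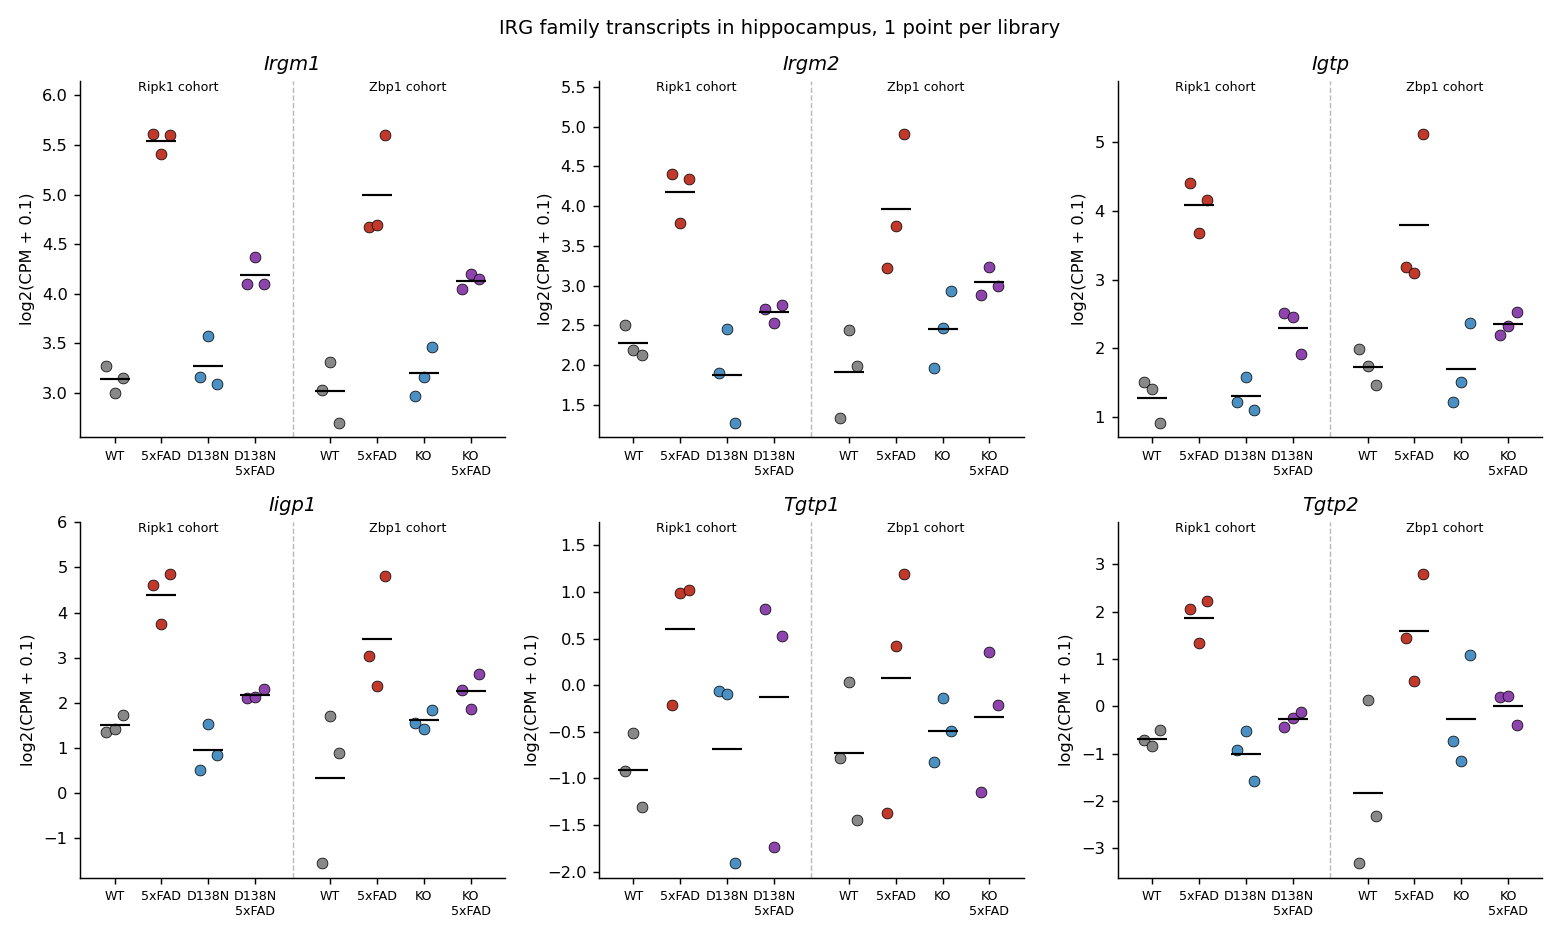
Level of each IRG gene as log2(CPM + 0.1) on the y axis, 1 point per library and a bar at the mean of the 3 libraries of a group; the x axis gives the genotype, Ripk1 cohort left and Zbp1 cohort right of the dashed line. 5xFAD libraries stand above WT for 6 of 6 genes in the Ripk1 cohort, D138N 5xFAD libraries lie below 5xFAD for 5, and 5xFAD 3 is the highest Zbp1 cohort library of every gene.

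The 5xFAD animals of the Zbp1 cohort gave rises of similar size with more spread. Irgm1 was at 8.08, 9.84 and 6.39 CPM in WT and 25.4, 25.8 and 48.6 CPM in 5xFAD, a rise of 2.04 ± 0.25 (edgeR, adjusted p = 0.00025). Irgm2 was at 2.41, 5.33 and 3.85 CPM in WT and 9.26, 13.4 and 30 CPM in 5xFAD, a rise of 2.13 ± 0.4 (edgeR, adjusted p = 0.00656). Igtp was at 3.86, 3.26 and 2.67 CPM in WT and 8.94, 8.49 and 34.8 CPM in 5xFAD, a rise of 2.45 ± 0.49 (edgeR, adjusted p = 0.0107). In each regulator 5xFAD 3 stood well above the other 5xFAD libraries, and no 5xFAD library overlapped WT.

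Among the effectors of the Zbp1 cohort, Iigp1 was at 0.241, 3.16 and 1.74 CPM in WT, where WT 1 held 2 counts, and at 8.11, 5.11 and 28 CPM in 5xFAD. Its rise of 2.84 ± 0.62 was called (edgeR, adjusted p = 0.0185). Tgtp2 was at 0, 0.99 and 0.1 CPM in WT (0, 31 and 3 counts) and at 2.62, 1.35 and 6.82 CPM in 5xFAD, and its difference of 3.04 ± 0.9 was not called (edgeR, adjusted p = 0.109; DESeq2, adjusted p = 0.00731). Again 5xFAD 3 was the highest library of both genes. Tgtp1, at 0.482, 0.926 and 0.267 CPM in WT and 0.287, 1.24 and 2.18 CPM in 5xFAD, overlapped between the groups (1.12 ± 0.71, edgeR, adjusted p = 0.611).

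In this cohort 4 of the 6 members rose, beside 3.13% of the 21274 genes tested. For 5 members no 5xFAD library overlapped WT, beside 8.28% of all genes. The median difference was 2.29, beside 0 over all genes. Without 5xFAD 3 the rises of the called regulators were 1.66 (Irgm1, edgeR, adjusted p = 0.000216), 1.5 (Irgm2, 0.0208) and 1.44 (Igtp, 0.0254), and Iigp1 was no longer called (1.8, 0.0979). Iigp1 was also lost without WT 1 (2.49, edgeR, adjusted p = 0.0574) and without WT 3 (2.76, 0.101), and Igtp without WT 3 (2.32, 0.0755), while Tgtp2 was called without 5xFAD 2 (3.42, 0.0332) or WT 2 (5.51, 0.0165). With the limma voom test, and with only the 2 groups in the fit, 1 member was called, Irgm1. The 5xFAD effect did not pass the test of a difference between cohorts for any of the 6 genes. In a fit of all 24 libraries 0% of 22565 genes were called. At an unadjusted p under 0.05 there were 0 of 6 members, beside 2063 of all genes tested, and DESeq2 and limma voom called 0 members. The differences ran from -0.23 ± 0.98 (Tgtp2) to 0.66 ± 1.02 (Tgtp1).

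With kinase-dead RIPK1, the regulators were expressed at far lower levels in 5xFAD hippocampus. Irgm1 was at 17, 20.5 and 17 CPM in D138N 5xFAD, below all of 48.9, 42.3 and 48.5 CPM in 5xFAD, and fell by 1.36 ± 0.14 on the log2 scale (edgeR, adjusted p = 0.000705). Irgm2 was at 6.41, 5.67 and 6.63 CPM and fell by 1.55 ± 0.25 (edgeR, adjusted p = 0.0134). Igtp was at 5.62, 5.37 and 3.67 CPM and fell by 1.82 ± 0.23 (edgeR, adjusted p = 0.00406). The D138N 5xFAD libraries of these 3 genes lay between WT and 5xFAD and overlapped neither.

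Iigp1 and Tgtp2 showed the largest decreases among the 6 members. Iigp1 was at 4.21, 4.29 and 4.85 CPM in D138N 5xFAD and fell by 2.31 ± 0.28 (edgeR, adjusted p = 0.00221; 4.96-fold lower). Tgtp2 was at 0.637, 0.738 and 0.813 CPM, or 28, 22 and 37 counts, and fell by 2.33 ± 0.34 (edgeR, adjusted p = 0.00797). Both were uniform over the 3 D138N 5xFAD libraries. Tgtp1, at 1.66, 0.201 and 1.34 CPM, overlapped 5xFAD, of which 2 libraries lay above all 3, and was not called (-0.52 ± 0.63, edgeR, adjusted p = 0.787). With the 2 near-identical copies added into 1 gene, the difference was -1.52 and was not called (edgeR, adjusted p = 0.188).

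Hence 5 of 6 members fell in D138N 5xFAD against 5xFAD, beside 0.365% of all genes tested, 78 in number, of which 73 were lower. In 5 members every D138N 5xFAD library lay below every 5xFAD library, beside 7.73% of all genes. The median difference was -1.68, beside -0.01 over all genes. Irgm2 was not called without D138N 5xFAD 1 (-1.57, edgeR, adjusted p = 0.082), D138N 5xFAD 3 (-1.59, 0.0816), 5xFAD 1 (-1.44, 0.0667) or 5xFAD 3 (-1.47, 0.0522), and Tgtp2 was not called without D138N 5xFAD 1 (-2.24, 0.0687) or 3 (-2.42, 0.0609). Thy1, whose promoter drives the transgenes, was at 2740, 2300 and 2390 CPM in 5xFAD and 1720, 2250 and 1610 CPM in D138N 5xFAD. With the Thy1 level as a covariate 0 genes of all tested, and so 0 of 6 members, were called, with differences of -1.21 for Irgm1 (edgeR, adjusted p = 0.437), -1.76 for Irgm2 (0.682), -1.57 for Igtp (0.684), -2.19 for Iigp1 (0.596), -3.48 for Tgtp1 (0.596) and -2.27 for Tgtp2 (0.755).

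In KO 5xFAD against 5xFAD the point estimates of all 6 members were below 0 and none was called. Irgm1 was at 16.4, 18.2 and 17.6 CPM in KO 5xFAD, below 25.4, 25.8 and 48.6 CPM in 5xFAD (-0.94 ± 0.24, edgeR, adjusted p = 0.286). Irgm2 was at 7.27, 9.33 and 7.88 CPM (-1.11 ± 0.38, edgeR, adjusted p = 0.51), and KO 5xFAD 2 overlapped 5xFAD 1 there. Igtp was at 4.49, 4.91 and 5.69 CPM, below all 5xFAD libraries (-1.79 ± 0.47, edgeR, adjusted p = 0.295). The KO 5xFAD libraries of each regulator lay within a narrow band, whereas the 5xFAD libraries did not.

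Iigp1 was at 4.81, 3.56 and 6.12 CPM in KO 5xFAD (-1.51 ± 0.57, edgeR, adjusted p = 0.524), Tgtp1 at 0.351, 1.18 and 0.761 CPM (-0.71 ± 0.68, adjusted p = 0.761) and Tgtp2 at 1.05, 1.07 and 0.662 CPM (-1.96 ± 0.83, adjusted p = 0.53). Of these effectors Tgtp2 alone had no overlap with 5xFAD. No member was called by edgeR, and 0% of all genes were. At an unadjusted p under 0.05 there were 5 of 6 members, beside 1875 of the 21274 genes tested. DESeq2 called Irgm1 (-0.94, adjusted p = 0.0224) and Igtp (-1.8, adjusted p = 0.0118), and limma voom called 0. Without the filter on low counts edgeR called 5 members, all but Tgtp1, among 498 genes called in that fit, and the DESeq2 calls were among 156. In the authors' deposited table, whose fold changes are 5xFAD over KO 5xFAD, the adjusted p was 0.016 for Irgm1 and 0.00411 for Igtp and between 0.0852 and 1 for the other 4. In 3 members every KO 5xFAD library lay below every 5xFAD library, beside 7.89% of all genes.

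How far KO 5xFAD stood below 5xFAD rested in part on 5xFAD 3. Without this library the differences were -0.56 for Irgm1 (edgeR, adjusted p = 0.208), -0.47 for Irgm2 (0.496), -0.79 for Igtp (0.245), -0.45 for Iigp1 (0.699), -0.01 for Tgtp1 (0.996) and -1.09 for Tgtp2 (0.578). The mutant effects in 5xFAD did not pass a test of their difference between cohorts for any member, with 0% of genes called. At an unadjusted p under 0.05 there were 0 of 6 members, beside 1064 of the 22565 genes tested, and DESeq2 and limma voom called 0 members. The difference was -0.42 ± 0.29 for Irgm1, -0.02 ± 0.55 for Igtp and -0.8 ± 0.67 for Iigp1. Without Zbp1 cohort 5xFAD 3 it was -0.79 for Irgm1 (edgeR, adjusted p = 0.394), -1.01 for Igtp (0.602) and -1.85 for Iigp1 (0.4).

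**Figure D3:**
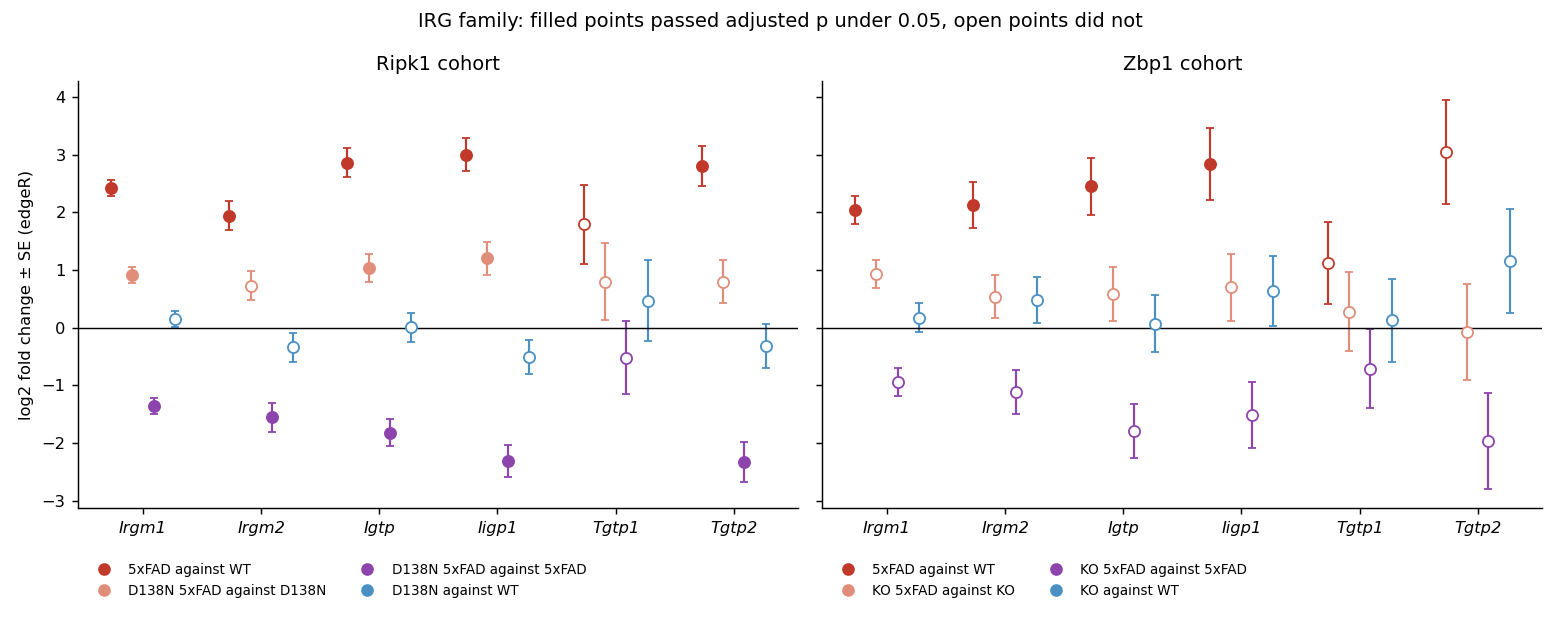
Log2 fold change ± SE (edgeR) of the 6 IRG genes in 4 comparisons per cohort; filled points passed an adjusted p under 0.05 and open points did not. In the Ripk1 cohort 5 genes rose with 5xFAD and fell in D138N 5xFAD against 5xFAD, and in the Zbp1 cohort 4 rose and 0 were called in KO 5xFAD against 5xFAD.

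Without the transgenes, no IRG gene passed the test for either mutation. Irgm1 was at 8.81, 11.8 and 8.42 CPM in D138N and at 7.69, 8.84 and 10.9 CPM in KO, overlapping WT of the same cohort in each case. Over the 6 members the differences ran from -0.51 ± 0.3 (Iigp1) to 0.47 ± 0.7 (Tgtp1) in D138N against WT, and from 0.07 ± 0.49 (Igtp) to 1.15 ± 0.9 (Tgtp2) in KO against WT. The libraries of every member overlapped those of WT, and 0% of all genes were called in either comparison. None of the 6 had an unadjusted p under 0.05, beside 514 of all genes tested for D138N and 779 for KO. DESeq2 and limma voom called 0 members.

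On the D138N background, 3 of the 6 members still rose with 5xFAD. Irgm1 rose from 8.81, 11.8 and 8.42 CPM in D138N to 17, 20.5 and 17 CPM in D138N 5xFAD (0.91 ± 0.14, edgeR, adjusted p = 0.00143). Igtp rose from 2.22, 2.9 and 2.05 CPM to 5.62, 5.37 and 3.67 CPM (1.03 ± 0.24, edgeR, adjusted p = 0.033). Iigp1 rose from 1.32, 2.79 and 1.69 CPM to 4.21, 4.29 and 4.85 CPM (1.2 ± 0.29, edgeR, adjusted p = 0.0396). For these 3 genes, as well as for Irgm2 (0.73 ± 0.25, edgeR, adjusted p = 0.173) and Tgtp2 (0.8 ± 0.37, adjusted p = 0.353), no D138N 5xFAD library overlapped D138N, beside 11.3% of all genes. Tgtp1 overlapped (0.8 ± 0.66, edgeR, adjusted p = 0.664). Of all genes 3.37% were called in this comparison.

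Irgm1 kept its call in this comparison without any single library. Igtp was lost without D138N 1 (edgeR, adjusted p = 0.133), D138N 3 (0.157), D138N 5xFAD 1 (0.11) or D138N 5xFAD 2 (0.1), and Iigp1 was lost in 7 of the 12 leave-outs (adjusted p up to 0.176). Irgm2 was called without D138N 2 (1.07, edgeR, adjusted p = 0.0305). Limma voom, or a fit of only these 2 groups, called Irgm1 alone.

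On the KO background the transgene effect was called for 0 of 6 members, beside 1.23% of all genes. Irgm1 had the clearest separation, from 7.69, 8.84 and 10.9 CPM in KO to 16.4, 18.2 and 17.6 CPM in KO 5xFAD (0.93 ± 0.24, edgeR, adjusted p = 0.109; DESeq2, adjusted p = 0.0108). It was the 1 member with an unadjusted p under 0.05, beside 1614 of the 21274 genes tested. It was also the 1 member called by DESeq2, among 510 genes. It was called without 5xFAD 3 (edgeR, adjusted p = 0.02) or without 5xFAD 2. Iigp1, at 2.85, 2.6 and 3.48 CPM in KO, also did not overlap KO 5xFAD (0.7 ± 0.58, edgeR, adjusted p = 0.971), making 2 members without overlap, beside 10.8% of all genes. For Tgtp2 the estimate was -0.07 ± 0.83, with KO 3 at 2.03 CPM above every KO 5xFAD library.

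Whether 5xFAD acted less on the mutant background was tested by the interaction, the 5xFAD effect in mutant animals minus that in animals without the mutation. For Ripk1 D138N the interaction of Irgm1 was -1.51 ± 0.19 (edgeR, adjusted p = 0.0261), 1 of the 6 genes called among all genes tested (0.0281%). Those of Igtp (-1.83 ± 0.34, edgeR, adjusted p = 0.189), Iigp1 (-1.8 ± 0.41, 0.312), Tgtp2 (-2 ± 0.51, 0.398), Irgm2 (-1.21 ± 0.35, 0.546) and Tgtp1 (-0.98 ± 0.94, 0.811) were not called, and DESeq2 called Irgm1, Igtp and Iigp1 among 83 genes. The Irgm1 call was lost in 8 of 12 leave-outs (D138N 1, D138N 5xFAD 1 and 3, 5xFAD 1 and 3, and each WT library; edgeR, adjusted p up to 0.144) and with limma voom (0.0522). For Zbp1 KO the interaction estimates ran from -0.84 ± 0.99 (Tgtp1) to -3.11 ± 1.22 (Tgtp2). Without 5xFAD 3 they were -0.73 for Irgm1, -0.96 for Irgm2, -0.85 for Igtp, -1.11 for Iigp1, -0.15 for Tgtp1 and -2.27 for Tgtp2, and over all leave-outs that of Tgtp2 ran from -5.58 (without WT 2) to -1.93 (without KO 3) and that of Tgtp1 from -1.57 (without WT 2) to -0.15. By edgeR 0 members and 0% of genes were called, and DESeq2 and limma voom called 0 members. At an unadjusted p under 0.05 there were 5 members, beside 480 of the 21274 genes tested.

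The order of the groups was the same for most members. In the Ripk1 cohort the means of all 6 genes followed 5xFAD, then D138N 5xFAD, then the groups without transgenes. D138N and WT libraries overlapped for 6 of 6 genes, and for Tgtp1 all neighbouring groups overlapped. As group means, Irgm1 was at 46.6 ± 3.69 CPM (SD, n = 3) in 5xFAD, 18.1 ± 2.01 in D138N 5xFAD, 9.68 ± 1.86 in D138N and 8.72 ± 0.847 in WT. Among the Zbp1 cohort groups Irgm1 was at 33.3 ± 13.3 CPM (SD, n = 3) in 5xFAD, 17.4 ± 0.881 in KO 5xFAD, 9.14 ± 1.61 in KO and 8.1 ± 1.72 in WT, and KO overlapped WT. Tgtp2 alone broke this order, with a mean of 0.96 ± 0.931 CPM (SD, n = 3) in KO and 0.927 ± 0.23 in KO 5xFAD, which overlapped.

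The other IRG genes of the tables were examined beside the members. Of 9 other IRG genes tested, 8 rose and 1 fell in 5xFAD of the Ripk1 cohort, with a median difference of 3.18. Gm12250, the effector Irgb10, rose by 3.26 ± 0.46 (edgeR, adjusted p = 0.000412), Gm5431 by 3.62 ± 0.54 (0.000629) and 9930111J21Rik2 by 1.6 ± 0.24 (0.000739). The gene that fell was Irgq, a divergent family member, at -0.38 ± 0.08 (edgeR, adjusted p = 0.00586). In D138N 5xFAD against 5xFAD, Gm12250 (-2.52 ± 0.43, edgeR, adjusted p = 0.0222) and Gm4951 (-2.89 ± 0.53, 0.0358) fell and 7 were not called, with a median of -1.25. Neither was called without D138N 5xFAD 1 or 3 or without 5xFAD 1 or 3, and 1 was without 5xFAD 2 or WT 3. In 5xFAD of the Zbp1 cohort 5 of 9 rose, among them 9930111J21Rik2 (1.47 ± 0.27, edgeR, adjusted p = 0.00534), 9930111J21Rik1 (2.42 ± 0.47, 0.0081) and Gm4951 (3.45 ± 0.67, 0.00853), but 1 without WT 3 and 0 with only those 2 groups in the fit. In KO 5xFAD against 5xFAD 0 of 9 were called, with a median of -1.05.

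GBP genes rose with 5xFAD in both cohorts. In 5xFAD of the Ripk1 cohort 7 of 10 tested rose, with Gbp2 at 2.94 ± 0.24 (edgeR, adjusted p = 2.61e-06), Gbp3 at 2.83 ± 0.26 (7.16e-06) and Gbp5 at 2.14 ± 0.22 (2.02e-05). Gbp5 is known for its role in inflammasome activation. Of the 10 GBPs 5 fell in D138N 5xFAD against 5xFAD, among them Gbp3 (-1.67 ± 0.24, edgeR, adjusted p = 0.00797), Gbp5 (-1.39 ± 0.21, 0.00883) and Gbp2 (-1.42 ± 0.22, 0.012), but 0 without D138N 5xFAD 1, 0 without D138N 5xFAD 3, 3 without 5xFAD 1 and 3 without 5xFAD 3. With the Thy1 covariate 0 GBPs and 0 other IRG genes were called in that comparison. Of the same 10 genes 6 rose in 5xFAD of the Zbp1 cohort, with Gbp3 at 1.98 ± 0.23 (edgeR, adjusted p = 0.000157), Gbp5 at 2.2 ± 0.29 (0.000379) and Gbp2 at 2.54 ± 0.39 (0.00135). In KO 5xFAD against 5xFAD 0 were called by edgeR and 2 by DESeq2 (median -1).

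On the mutant backgrounds fewer of these genes were called with 5xFAD. In D138N 5xFAD against D138N, Gm5431 (2.74 ± 0.57, edgeR, adjusted p = 0.0154), 9930111J21Rik2 (1.13 ± 0.24, 0.0178), Gbp2 (1.57 ± 0.24, 0.0013) and Gbp3 (1.26 ± 0.25, 0.0114) rose and Irgq fell (-0.33 ± 0.08, 0.0353). Without D138N 3, 0 of the other IRG genes and 1 GBP were called there, and without D138N 1 it was 1 of each. The GBPs called there were 4 without D138N 2, 5 by DESeq2 and 5 by edgeR without the filter on low counts. In KO 5xFAD against KO 0 genes of either list were called by edgeR, and DESeq2 called 2 other IRG genes and 1 GBP. With only these 2 groups in the fit, edgeR called 4 other IRG genes and 3 GBPs. Whether the number called differs between backgrounds was not tested.

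Upstream of the members are the interferon receptors, their kinases and the transcription factors that read ISRE and GAS letters. In the list of interferon gamma signalling, 5 of 13 tested rose and 1 fell in 5xFAD of the Ripk1 cohort, among them Irf8 (2.34 ± 0.13, edgeR, adjusted p = 1.2e-07) and Nlrc5, a transactivator of MHC class I genes (3.08 ± 0.22, 7.82e-07). The gene that fell was Ciita, the transactivator of MHC class II genes (-0.86 ± 0.27, edgeR, adjusted p = 0.0413). In D138N 5xFAD against 5xFAD 3 of the 13 fell, among them Nlrc5 (-1.5 ± 0.2, edgeR, adjusted p = 0.00537) and Irf1 (-0.79 ± 0.13, 0.0133). The interferon gamma receptor gene Ifngr1 was at -0.01 ± 0.11 and the kinase gene Jak1 at 0.1 ± 0.08 there. Of the 13 genes 4 rose in 5xFAD of the Zbp1 cohort, among them Irf8 (2.55 ± 0.24, edgeR, adjusted p = 2.68e-05), Nlrc5 (3.69 ± 0.45, 0.000208) and Ifngr1 (0.75 ± 0.19, 0.0419), and 0 were called in KO 5xFAD against 5xFAD. The interaction of Irf7, a type I interferon factor, with D138N was also called (-2.59 ± 0.36, edgeR, adjusted p = 0.0404).

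In the type I interferon list 5 of 8 tested rose in 5xFAD of the Ripk1 cohort, with Irf7 at 3.92 ± 0.27 (edgeR, adjusted p = 5.08e-07), Irf9 at 1.67 ± 0.14 (3.51e-06) and Stat2 at 1.16 ± 0.1 (3.62e-06). Of these 8 genes 4 fell in D138N 5xFAD against 5xFAD, Irf7 by 2.67 ± 0.25 (edgeR, adjusted p = 0.000383), Stat2 by 0.86 ± 0.1 (0.00139), Usp18, a negative regulator of the type I receptor, by 2.33 ± 0.31 (0.00474) and Irf9 by 1 ± 0.14 (0.00537). In 5xFAD of the Zbp1 cohort Irf9 (1.02 ± 0.17, edgeR, adjusted p = 0.0025), Usp18 (1.73 ± 0.31, 0.00419) and Irf7 (2.24 ± 0.4, 0.00467) rose, and 0 of 8 were called in KO 5xFAD against 5xFAD. The ligand genes themselves were near or below detection. Ifng had 5 counts in 5xFAD 1 of the Ripk1 cohort, 2 counts in 5xFAD 3 of the Zbp1 cohort and 0 in the other 22 libraries, and Ifnb1 and Ifna1 had 0 counts in all 24. Ifna2 had counts in 5xFAD of the Ripk1 cohort alone, and Ifna4 in KO 5xFAD alone. A library with 0 counts allows up to 3 counts of its total, so 0 counts bound the level and do not show absence.

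The ATG8 conjugation genes, whose products help to position IRG proteins, showed small differences. Of 11 tested, Gabarap rose in 5xFAD of the Ripk1 cohort (0.43 ± 0.08, edgeR, adjusted p = 0.00409), and 0 were called in 5xFAD of the Zbp1 cohort or in either mutant 5xFAD against 5xFAD. Their medians in these 4 comparisons lay between -0.16 and 0.04.

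**Figure D4:**
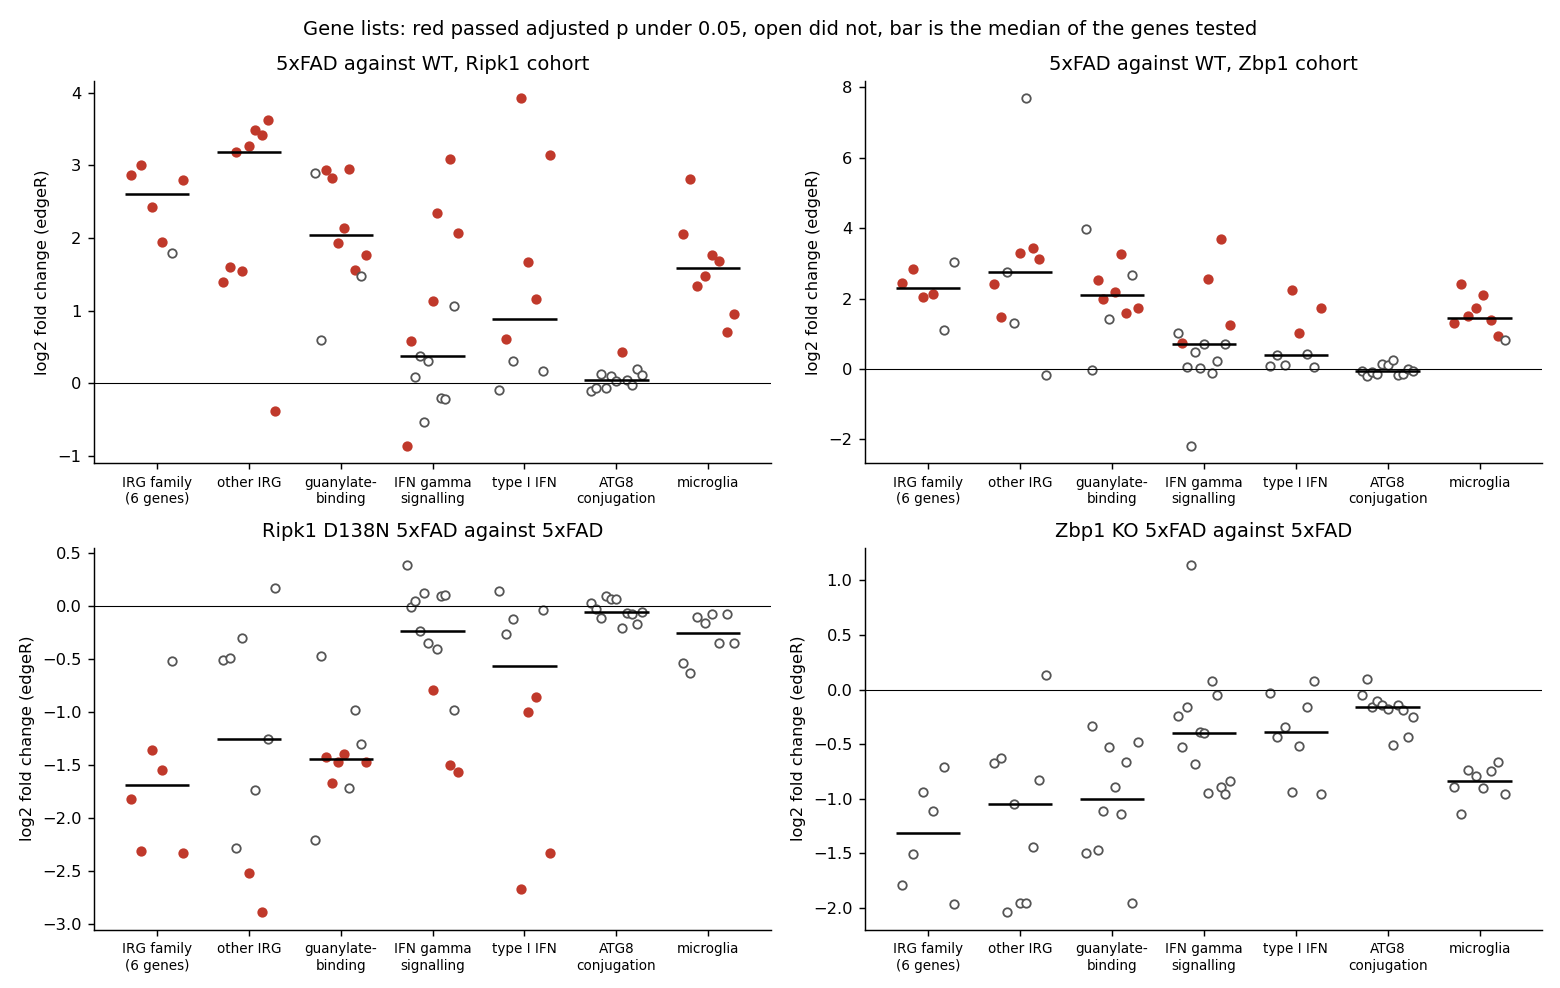
Log2 fold change (edgeR, y axis) of every tested gene of 7 gene lists (x axis) in 4 comparisons; red points passed an adjusted p under 0.05, open points did not, and bars are medians. The medians of IRG, other IRG and GBP genes are 2.61, 3.18 and 2.04 in 5xFAD against WT of the Ripk1 cohort and -1.68, -1.25 and -1.45 in D138N 5xFAD against 5xFAD, and those of ATG8 conjugation genes are 0.04 and -0.05.

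Markers of the cell types that can express IRG genes moved as well, and their part in the results was not tested. Microglia markers (8 genes, none at 0 in a library group) summed to 253 to 351 CPM in WT, 949 to 993 in 5xFAD, 302 to 321 in D138N and 775 to 903 in D138N 5xFAD, so D138N 5xFAD lay below 5xFAD without overlap. All 8 rose in 5xFAD of the Ripk1 cohort, with C1qa at 2.81 ± 0.16 (edgeR, adjusted p = 1.33e-07) and Csf1r at 1.34 ± 0.09 (5.08e-07). In D138N 5xFAD against 5xFAD 0 of 8 were called and their median was -0.25, beside -1.68 for the IRG genes. The microglia sums of the Zbp1 cohort were 313 to 382 CPM for WT, 808 to 1390 for 5xFAD, 259 to 280 for KO and 576 to 702 for KO 5xFAD, again without overlap between the last and 5xFAD. There 7 of 8 rose in 5xFAD, among them C1qa (2.42 ± 0.2, edgeR, adjusted p = 1.21e-05) and Cx3cr1 (1.72 ± 0.16, 2.91e-05), and 0 were called in KO 5xFAD against 5xFAD, with a median of -0.84 beside -1.31 for the IRG genes.

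Lymphocyte markers were scarce but differed between the groups. The 12 T and NK cell markers summed to 0.992 to 1.98 CPM in WT, 4.36 to 7.07 in 5xFAD, 1.09 to 1.36 in D138N and 2.14 to 3.32 in D138N 5xFAD. Of 6 tested, Cd3g (3.98 ± 0.83, edgeR, adjusted p = 0.00596), Nkg7 (3.42 ± 1, 0.0338), Cd8a (2.52 ± 0.77, 0.0403) and Trac (1.42 ± 0.45, 0.0484) rose in 5xFAD of the Ripk1 cohort. None of the 6 was called by edgeR in D138N 5xFAD against 5xFAD, with a median of -0.92. The lymphocyte sums of the Zbp1 cohort were 0.736 to 1.18 CPM for WT, 2.35 to 4.48 for 5xFAD, 0.862 to 1.47 for KO and 2.49 to 3.05 for KO 5xFAD, which overlapped 5xFAD. Markers at 0 in all libraries of a group included Ncr1 and Gzmb in WT of both cohorts, Cd3d in D138N and KO 5xFAD, and Ncr1 in 5xFAD of the Zbp1 cohort. Cd8a was the 1 of 5 tested that rose in 5xFAD there (7.59 ± 1.46, edgeR, adjusted p = 0.0112), with all WT libraries at 0 counts, so this fitted value is no bound. Whether these cells contributed to the IRG differences was not tested.

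Peripheral myeloid markers, among them Lyz2, which microglia also express, summed to 75.6 to 95.8 CPM in 5xFAD and 70.4 to 87.3 in D138N 5xFAD, beside 10.1 to 16.1 in WT. For the Zbp1 cohort they summed to 65.4 to 134 CPM in 5xFAD and 42.2 to 49.4 in KO 5xFAD. Lyz2 and Ly6c2 rose in 5xFAD of the Ripk1 cohort and Lyz2 in that of the Zbp1 cohort, and 0 were called in either mutant 5xFAD against 5xFAD. The median difference of the 5 tested was -1.76 in D138N 5xFAD against 5xFAD, beside -1.68 for the IRG genes. In KO 5xFAD against 5xFAD the median of the 4 tested was -0.02. Brain endothelial markers summed to 210 to 293 CPM over the 24 libraries. Astrocyte markers summed to 4170 to 4630 CPM in 5xFAD of the Ripk1 cohort and 4710 to 6530 in D138N 5xFAD, with 0 of 6 called between them. In 5xFAD against WT 2 of the 6 rose and 1 fell in the Ripk1 cohort, and 2 rose in the Zbp1 cohort. The astrocyte gene Aqp4 also rose in D138N 5xFAD against D138N (0.73 ± 0.13, edgeR, adjusted p = 0.00514) and in KO 5xFAD against KO (0.79 ± 0.13, edgeR, adjusted p = 0.00568). The other 5 were not called there.

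IRG and microglia markers did not follow each other in every library. Zbp1 cohort 5xFAD 3 had the highest level of all 6 IRG genes, with a mean centred log2 CPM of 2.32 beside 0.62 and 0.73 in the other 5xFAD libraries. The same library had the lowest microglia sum of its group (808 CPM beside 1390 and 1310), the lowest Cst7, a gene of plaque-associated microglia (48.6 CPM beside 111 and 107), and the lowest Thy1 (1460 CPM beside 2160 and 2040). Within this group the IRG genes were not ordered as the microglia markers were. Between groups, the IRG mean and the microglia sum were both higher in 5xFAD than in WT of each cohort. Both were also lower in mutant 5xFAD than in 5xFAD, without overlap. Whether microglia account for the IRG differences was not tested.

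**Figure D5:**
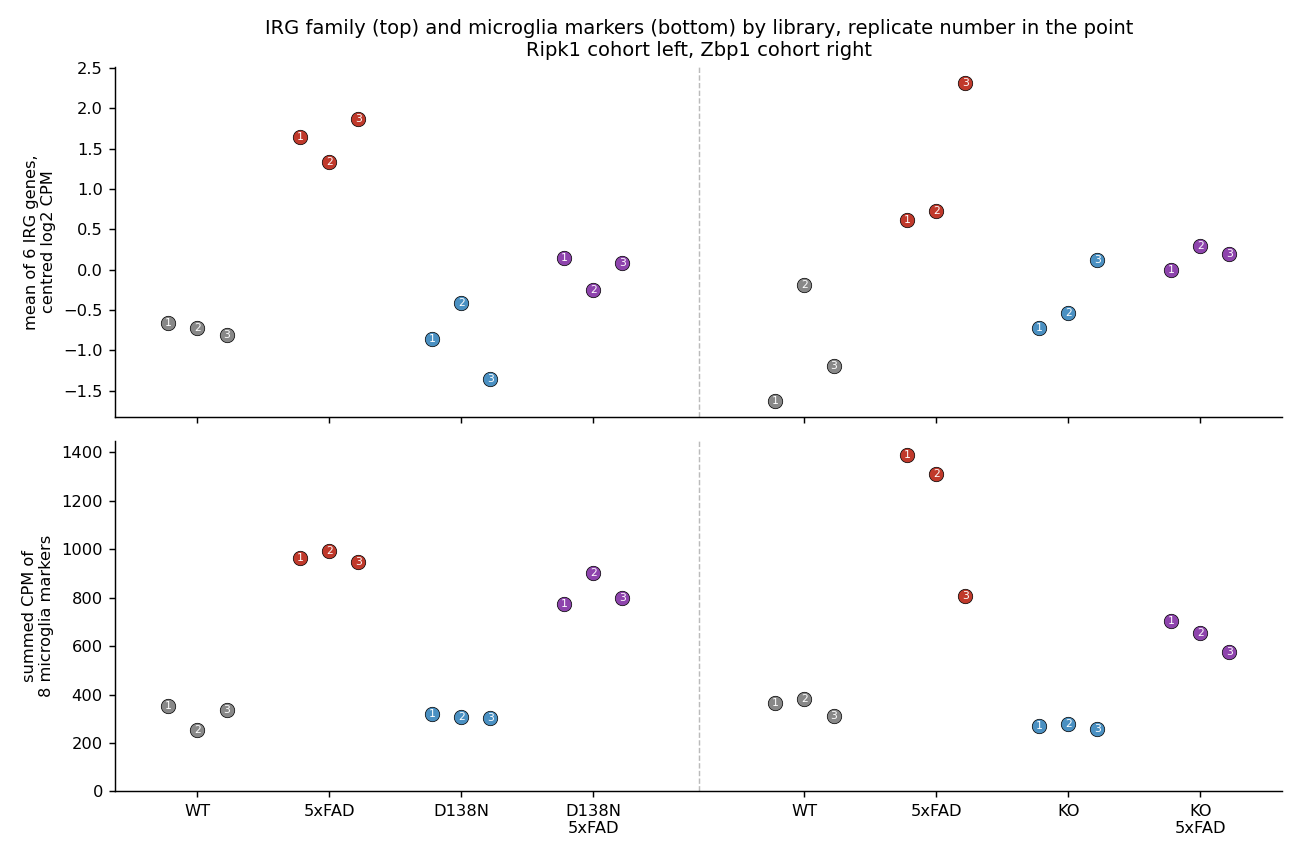
Mean centred log2 CPM of the 6 IRG genes (top) and summed CPM of 8 microglia markers (bottom) in each library, with the replicate number in the point; the Ripk1 cohort is left and the Zbp1 cohort right of the dashed line. Zbp1 cohort 5xFAD 3 is the highest library in the top panel at 2.32 and the lowest of its group in the bottom panel at 808 CPM.

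The genes with the pattern nearest to the IRG mean over the 24 libraries were interferon-induced ones. Likeness was the root mean square difference (RMS, log2 units) between a gene's log2 CPM, centred within each cohort, and the mean of the 6 members, over 20674 genes. Among the 10 nearest were Gbp7 (0.41), Gbp2 (0.41), Rnf213 (0.43), Ifih1 (0.44), Gbp5 (0.44), Tap1 (0.45), Parp14 (0.46), Parp9 (0.46) and Samd9l (0.47). Gbp2, Gbp5 and Gbp7 are GBPs, Ifih1 encodes the double-stranded RNA sensor MDA5, and Tap1 a transporter that supplies peptides to MHC class I. Of the members, Irgm2 (0.19), Irgm1 (0.31) and Igtp (0.39) lay nearer to the mean that they helped to form. Iigp1 (0.54), Tgtp2 (0.56) and Tgtp1 (0.77) lay farther from it than the 10 nearest genes did.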

How the data were processed

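The authors deposited 1 table of read counts per gene for each cohort, as whole numbers and unfiltered, and tables of their own comparisons with log2 fold changes and adjusted p-values, per the file headers. Per the submitters' processing notes the tools include HISAT2, DESeq2 1.42.1 and edgeR 4.0.16. How reads were counted, strand and multiple hits included, is not given in the sources used here. The RIP counts are the authors' deposited table of symbols and repeat families.

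The 24 hippocampal libraries were grouped by title. R 4.3.3, edgeR 4.0.16 (TMM, filterByExpr, quasi-likelihood test), limma 3.58.1 and DESeq2 1.42.0 were used; SE is the absolute log2 fold change over the square root of F. The edgeR script was tested on simulated data. Depth limits precision most in Zbp1 cohort WT 1. This library also had Cst7 at 4.7 CPM (39 counts), beside 0.128 and 0.334 CPM in WT 2 and WT 3, and the reason was not tested. Malat1 was at 994 CPM in Zbp1 cohort WT 2, beside 2400 and 2650 CPM in WT 1 and WT 3. In 5xFAD 2 of that cohort Malat1 was at 791 CPM, beside 1940 and 2620 CPM in 5xFAD 1 and 3. What set these 2 libraries apart was not tested. The members and all gene lists were chosen with earlier results of these data known. Named are all 6 members; of a list, every called gene if there were 4 or fewer, otherwise the 3 with the smallest adjusted p; and the 10 genes of most similar pattern; 2 genes that the rule names are not reported here. Irgq and Ciita were named after their values were seen, as were list genes given without a call. Alternatives were RLE scaling, other filters, DESeq2, limma voom, fits of fewer groups, a replicate block, a Thy1 covariate, summed Tgtp copies and leaving out each library. Replicate pairs differed by more than sampling noise.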

Additional observations from a re-analysis of the deposited data

Results flagged for a closer look

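The interaction of 5xFAD with Ripk1 D138N differed from 0 for Irgm1 by the test of the interaction itself, at -1.51 ± 0.19 (edgeR, adjusted p = 0.0261). The 5xFAD effect on Irgm1 was 2.42 ± 0.14 without and 0.91 ± 0.14 with the mutation, and each D138N 5xFAD library lay below each 5xFAD library. The call was lost in 8 of 12 leave-outs and with limma voom (adjusted p = 0.0522).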

How the results depend on the processing

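Of 1559 alternative values for single members, 1475 kept their side of the threshold, 48 lost a call and 31 gained one. Uncalled values among the 1475 could change sign if they stayed within the SE of the main value. A further 5 uncalled ones changed sign by more than the SE, and 0 called ones reversed. The number of IRG genes called in D138N 5xFAD against 5xFAD was 0 with the Thy1 covariate (0 of all genes) and 3 to 5 with a library left out. In D138N 5xFAD against D138N it was 1 with limma voom, 1 with only the groups compared and 1 to 4 with a library left out. The Ripk1 D138N interaction called 4 members with no filter (among 145 genes), 3 with DESeq2 (83), 0 with limma voom (0) and 0 to 1 with a library left out. In 5xFAD against WT the Zbp1 cohort gave 1 with limma voom, 1 with only the groups compared and 2 to 5 with a library left out, and the Ripk1 cohort gave 5 to 6. In KO 5xFAD against 5xFAD there were 5 with no filter (498) and 2 with DESeq2 (156). In KO 5xFAD against KO there were 1 with no filter, 1 with DESeq2, 1 with only the groups compared and 0 to 1 with a library left out. The Zbp1 KO interaction called 4 with no filter (29). The cause of these changes was not tested. Replicate numbers did not pair the libraries: same-number correlations ran from -0.23 to 0.26 (Ripk1 cohort) and from -0.12 to 0.42 (Zbp1 cohort). With a replicate block 0 members were called in the Ripk1 D138N interaction (Irgm1 -1.51, edgeR, adjusted p = 0.0642) and 2 in D138N 5xFAD against D138N, and the other counts of called members did not change. Depth limited Tgtp1 and Tgtp2 most, at 0 to 238 counts a library.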

Other observations

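The ZBP1 RNA immunoprecipitation (RIP) libraries, 1 input and 1 precipitate (IP) each from WT and 5xFAD hippocampus, held 5.74 M to 9.44 M counts (M, mega) and few reads of IRG genes. There were no replicates and so no test; intervals are exact 95% intervals of counting error. Iigp1 had 23 counts in the 5xFAD IP and 19 in its input, an IP to input ratio of 1.68 (0.875 to 3.26), and in WT the ratio was 1.39 (0.678 to 2.82). Irgm2 was at 1.17 (0.62 to 2.17) in 5xFAD and 1.16 (0.595 to 2.24) in WT, and Igtp at 0.902 (0.412 to 1.9) and 1.37 (0.637 to 2.91). Irgm1 had 4 IP and 17 input counts in 5xFAD, a ratio of 0.326 (0.0799 to 1), and 1.16 (0.433 to 3.01) in WT. Tgtp2 had 3 IP and 5 input counts in 5xFAD (0.832, 0.129 to 4.28) and 1 and 11 in WT (0.141, 0.00328 to 0.971). Tgtp1 is not an entry of this table. In the inputs Irgm1 was at 1.8 CPM in 5xFAD and 1.35 CPM in WT (1.05 to 2.88 and 0.696 to 2.35), with overlapping intervals. In the same order Irgm2 was at 2.65 and 2.69 CPM, Igtp at 2.12 and 1.91 CPM and Iigp1 at 2.01 and 2.13 CPM. Tgtp2 was at 0.529 and 1.23 CPM. The several-fold rises of the 24 hippocampal libraries were thus not seen between these single inputs, and the reason was not tested.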
